A study of Mus musculus with 6 samples.

Results

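Myosin light chains are small subunits that wrap the neck of the myosin head, where each head carries a regulatory and an essential light chain. Slow and fast muscle fibers use different light chain genes, and the muscle light chain kinases phosphorylate the regulatory chain. In skeletal muscle that phosphorylation raises the force of a contraction at a given calcium level. The 8 genes described here were chosen by symbol: 6 light chains (Myl1, Myl2, Myl3, Myl4, Mylpf and Myl6b) and 2 kinases (Mylk2 and Mylk4). All 8 were among the 24411 genes listed, and all 8 passed the filter on low counts that left 12828 genes to test.

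Poly(A) RNA was read from the soleus (Sol), a mixed slow and fast calf muscle, of 3 WT and 3 LSD1-mKO mice after voluntary wheel running (VWR), with 1 library per mouse (WT1 to WT3 and LSD1-mKO1 to LSD1-mKO3). All were C57BL/6 mice with floxed Lsd1 alleles that lived with a wheel for 38 days from 8 weeks of age. Mice of both genotypes received tamoxifen (75 mg/kg on 5 days) after 3 days of familiarization. LSD1-mKO mice also carried CreERT2 under the human ACTA1 promoter, which is active in differentiating and differentiated muscle cells, while WT mice lacked CreERT2. The series has no sedentary mice, so these values describe genotype within trained muscle only. Totals were 8940206, 10366443 and 10989846 estimated counts in WT1 to WT3, against 13563881, 13798059 and 10984664 in LSD1-mKO1 to LSD1-mKO3.

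Kdm1a, which encodes LSD1, measured 40.5, 38.2 and 33.6 counts per 1000000 after TMM normalization (CPM) in WT1 to WT3, against 14.6, 16.6 and 16.6 CPM in LSD1-mKO1 to LSD1-mKO3. Kdm1a was lower in each library labelled LSD1-mKO than in any labelled WT. Transcripts that define skeletal muscle were abundant in each library: the 5 markers Acta1, Ckm, Ttn, Neb and Des summed to between 59658 and 77606 CPM. The 5 markers of cardiac muscle summed to between 19.6 and 29.2 CPM: the atrial light chain Myl7 was at 0 counts in all 6 libraries, while the heavy chain Myh6 was at 12.9 to 17.3 CPM and the troponin Tnnt2 at 5.68 to 11.5 CPM. The tissue is whole muscle, in which fewer cells of a type and less RNA per cell cannot be told apart.

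When LSD1-mKO mice were compared with WT mice, none of the 8 genes passed an adjusted p of 0.05 by edgeR's quasi-likelihood test, against 2 of the 12828 genes tested (0.0156%). At an unadjusted p under 0.05, 2 of the 8 were lower in LSD1-mKO (Mylk4 and Myl4) and 0 were higher, where 2.88% of all genes tested were lower and 3.52% were higher. The CPM of the genotypes did not overlap for 1 of the 8, Mylk4, which was lower in LSD1-mKO, against 6.1% of all genes in that direction and 6.63% in the other. With DESeq2 in place of edgeR, 1 of the 8 passed the adjusted threshold (Mylk4, lower in LSD1-mKO), against 42 of the 12828 genes (0.327%). The median log2 fold change of the 8 was -0.11, beside -0.02 for all genes tested.

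Mylk4 encodes a light chain kinase of striated muscle and lies on chromosome 13 of GRCm38, from 32700834 to 32783954 on the minus strand. Its level was 431, 234 and 276 CPM in WT1 to WT3, against 85.3, 161 and 166 CPM in LSD1-mKO1 to LSD1-mKO3. All 3 LSD1-mKO mice lay below all 3 WT mice, with LSD1-mKO1 the lowest and WT1 the highest of the 6. On average LSD1-mKO mice had 43.9% of the level in WT mice. The log2 fold change was -1.19 (standard error 0.29, 95% interval -1.86 to -0.52), with an adjusted p of 0.497 from edgeR with Benjamini-Hochberg adjustment. An exact permutation test of the CPM gave a 2-sided p of 0.1, the smallest that 3 mice against 3 allow.

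Among all 12828 genes, Mylk4 held rank 33 by log2 fold change, counted from the lowest, and rank 86 by p. Among the 1589 genes with a mean of at least 100 CPM, 2 had a lower log2 fold change than Mylk4 and 11 had a smaller p. DESeq2, which the study used for its wheel-running mice, placed Mylk4 past the threshold, with a log2 fold change of -1.18 and an adjusted p of 0.00547. Here it was run on the 12828 genes left by the filter, so its settings may differ from those of the study. Over all 14 alternatives the adjusted p of Mylk4 ran from 0.00547 to 0.998. The log2 fold change of Mylk4 stayed between -1.36 and -0.89 in those 14 alternatives, and its unadjusted p was under 0.05 in 14 of 14.

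Mylk2 encodes the skeletal muscle light chain kinase, the main enzyme that phosphorylates regulatory chains in this tissue, and lies on chromosome 2 from 152911352 to 152923068. It measured 376, 269 and 346 CPM in WT1 to WT3, against 213, 335 and 264 CPM in LSD1-mKO1 to LSD1-mKO3. The genotypes overlapped, since LSD1-mKO2 lay above WT2 while LSD1-mKO1 was the lowest of the 6. The log2 fold change of Mylk2 was -0.29 (standard error 0.18, 95% interval -0.70 to 0.13, edgeR adjusted p = 0.781). That value was -0.14 without LSD1-mKO1 and -0.46 without LSD1-mKO2. LSD1-mKO1 had the lowest level of both kinases.

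The balance between the kinases was compared within each mouse as the log2 ratio of TPM (counts divided by transcript length and scaled to a sum of 1000000), in which library size and normalization cancel. Mylk4 over Mylk2 was -0.72, -1.12 and -1.24 in WT1 to WT3, against -2.24, -1.97 and -1.59 in LSD1-mKO1 to LSD1-mKO3. Mylk2 was the more abundant kinase per length in 6 of 6 mice, and the ratios of the 3 LSD1-mKO mice all lay below those of the WT mice. The mean ratio was 0.90 lower in LSD1-mKO on the log2 scale (-0.90, exact permutation test, 2-sided, p = 0.1, the smallest possible, and 0.4 after adjustment over the 4 ratios compared). As a share of both kinases, Mylk4 made up 33.0% ± 4.23 (SD, n = 3) of the TPM in WT mice, against 20.9% ± 3.77 (SD, n = 3) in LSD1-mKO. The kinases together summed to 418, 316 and 375 TPM in WT1 to WT3, against 192, 315 and 264 TPM in LSD1-mKO1 to LSD1-mKO3.

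**Figure D1:**
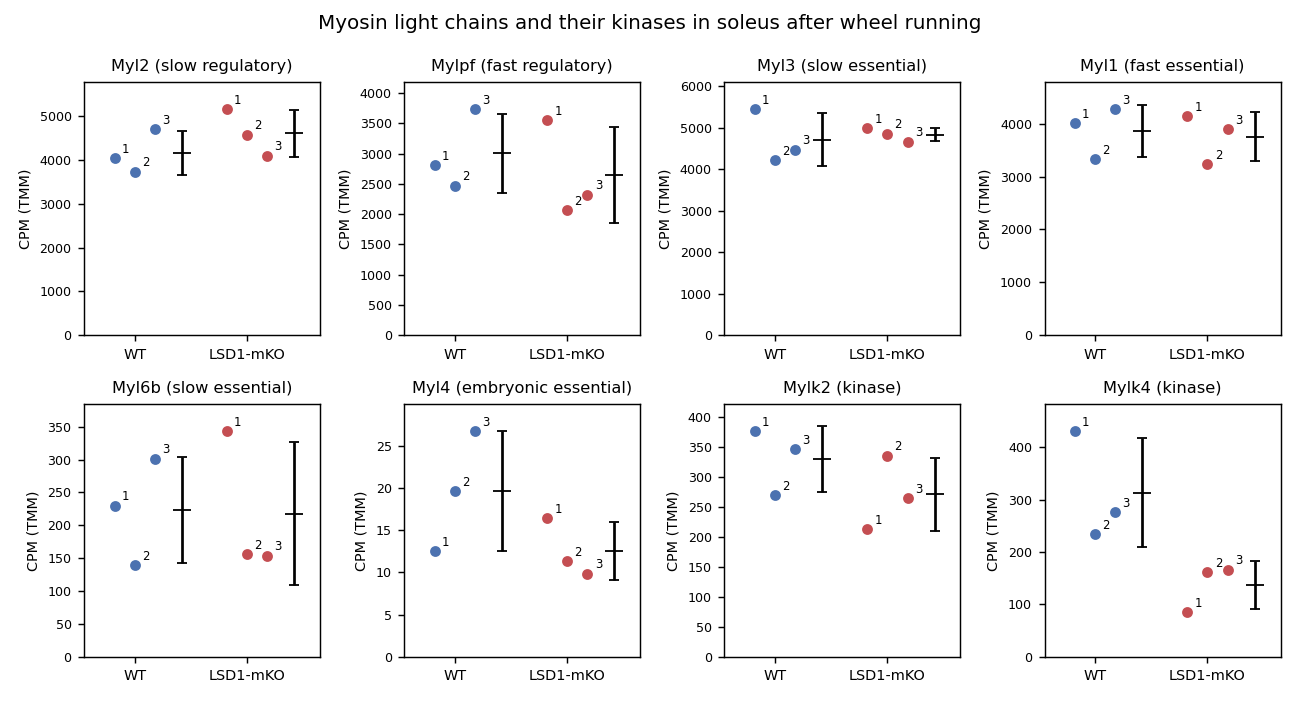
Level of each of the 8 genes in each mouse, in CPM after TMM normalization on a linear axis that starts at 0. Points are mice with their replicate numbers, and bars are the mean and SD of 3 mice; Mylk4 runs from 234 to 431 CPM in WT and from 85.3 to 166 CPM in LSD1-mKO, while the genotypes overlap in the other 7 panels.

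Other kinases can also phosphorylate myosin light chains. Mylk, the smooth muscle light chain kinase, measured between 52.7 and 62.2 CPM in the 6 libraries, and Mylk3, the cardiac kinase, between 1.89 and 5.18 CPM; the genotypes overlapped for both. They did not overlap for Dapk3, a death-associated protein kinase, which ran from 24.5 to 26.1 CPM in WT mice and reached at most 23.7 CPM in LSD1-mKO mice (log2 fold change -0.22, standard error 0.10, edgeR adjusted p = 0.766), as for 6.1% of all genes in that direction.

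The kinases work beside a calcium sensor and against a phosphatase. The 3 calmodulin genes, whose protein activates the kinases, summed to between 555 and 631 CPM in the 6 libraries and had a median log2 fold change of 0.06. The 9 genes listed for the light chain phosphatase and its inhibitors summed to between 1202 and 1359 CPM and had a median log2 fold change of -0.0032. That list took in the catalytic genes Ppp1ca, Ppp1cb and Ppp1cc, at means of 183, 630 and 130 CPM. The sum is therefore not of the light chain phosphatase alone. In both lists 0 genes passed the adjusted threshold and 0 had an unadjusted p under 0.05. Of all genes tested, 2.88% were lower and 3.52% higher at that unadjusted p.

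The regulatory light chains are Myl2, of slow fibers, and Mylpf, of fast fibers. Myl2 lies on chromosome 5 from 122100951 to 122113472 and measured 4037, 3730 and 4711 CPM in WT1 to WT3, against 5158, 4577 and 4097 CPM in LSD1-mKO1 to LSD1-mKO3. Mylpf lies on chromosome 7 from 127208890 to 127214298 and measured 2804, 2472 and 3731 CPM in WT1 to WT3, against 3552, 2069 and 2320 CPM in LSD1-mKO1 to LSD1-mKO3. The genotypes overlapped for both genes, and for Mylpf WT3 and LSD1-mKO1 stood above the other 4 mice. The log2 fold change was 0.15 for Myl2 (standard error 0.15, edgeR adjusted p = 0.876) and -0.18 for Mylpf (standard error 0.23, edgeR adjusted p = 0.898). Without WT3 the value for Mylpf became 0.0050, and without LSD1-mKO1 it became -0.45. The value for Myl2 was 0.06 without LSD1-mKO1 and 0.25 without WT3.

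Per length, Myl2 over Mylpf was 0.31, 0.38 and 0.12 on the log2 scale in WT1 to WT3, against 0.32, 0.93 and 0.61 in LSD1-mKO1 to LSD1-mKO3. LSD1-mKO2 and LSD1-mKO3 lay above all WT mice, while LSD1-mKO1 lay between WT1 and WT2. The slow share of the regulatory chains was 54.7% ± 2.29 (SD, n = 3) of TPM in WT mice, against 60.5% ± 5.01 (SD, n = 3) in LSD1-mKO. The log2 ratios differed by 0.35 (exact permutation test, 2-sided, p = 0.2, and 0.4 after adjustment over the 4 ratios). Leaving out LSD1-mKO2 gave a difference of 0.19.

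The essential light chains of adult fibers are Myl3, of slow fibers, and Myl1, of fast fibers. Myl3 lies on chromosome 9 from 110741861 to 110769798 and measured 5436, 4218 and 4469 CPM in WT1 to WT3, against 4982, 4847 and 4663 CPM in LSD1-mKO1 to LSD1-mKO3. Myl1 lies on chromosome 1 from 66924295 to 66945404 and measured 4006, 3322 and 4269 CPM in WT1 to WT3, against 4136, 3233 and 3895 CPM in LSD1-mKO1 to LSD1-mKO3. For Myl3 the LSD1-mKO values lay inside the range of WT, and for Myl1 the lowest mice were LSD1-mKO2 and WT2. Their log2 fold changes were 0.04 for Myl3 (95% interval -0.29 to 0.36, edgeR adjusted p = 0.968) and -0.04 for Myl1 (95% interval -0.39 to 0.31, edgeR adjusted p = 0.966). The sign of each turned when 1 mouse was left out: for Myl3 without WT2 (-0.04), and for Myl1 without WT3 (0.04) or LSD1-mKO2 (0.06).

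Within each mouse, the log2 ratio of Myl3 over Myl1 in TPM was 0.65, 0.55 and 0.27 in WT1 to WT3, against 0.48, 0.79 and 0.47 in LSD1-mKO1 to LSD1-mKO3. The lowest mouse was WT3 and the highest was LSD1-mKO2, the same mice that were lowest and highest for Myl2 over Mylpf. The slow share of these essential chains was 58.4% ± 3.29 (SD, n = 3) in WT mice, against 59.9% ± 3.05 (SD, n = 3) in LSD1-mKO. The ratios differed by 0.09 (exact permutation test, 2-sided, p = 0.6, and 0.7 after adjustment over the 4 ratios). The difference became -0.02 without WT3 or without LSD1-mKO2.

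Myl6b, a further essential chain found in slow fibers, lies on chromosome 10 from 128494157 to 128498685. It measured 230, 140 and 301 CPM in WT1 to WT3, against 343, 156 and 154 CPM in LSD1-mKO1 to LSD1-mKO3. As for Mylpf, the highest mice were WT3 and LSD1-mKO1, and the highest mouse stood 2.46 times above the lowest. The log2 fold change of -0.04 (standard error 0.36, 95% interval -0.86 to 0.79, edgeR adjusted p = 0.986) became 0.24 without WT3, 0.16 without LSD1-mKO2 and 0.16 without LSD1-mKO3. In the other direction, it became -0.53 without LSD1-mKO1 and -0.28 without WT2. Myl6b made up between 2.86% and 5.92% of the summed TPM of Myl6b and Myl3. Counting it with Myl3 as slow changed the essential ratio difference from 0.09 to 0.08.

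Myl4 encodes the essential chain of embryonic muscle and the atria and lies on chromosome 11 from 104550663 to 104595753. It was the least abundant of the 6 light chains, at 12.5, 19.6 and 26.7 CPM in WT1 to WT3, against 16.4, 11.4 and 9.87 CPM in LSD1-mKO1 to LSD1-mKO3. WT2 and WT3 were above all LSD1-mKO mice, whereas WT1 lay below LSD1-mKO1. The log2 fold change was -0.65 (standard error 0.28, 95% interval -1.29 to -0.0073, edgeR adjusted p = 0.766), and it was -0.36 without WT3. The unadjusted p of Myl4 was under 0.05 in 5 of the 14 alternatives. Myl4 made up 0.240% ± 0.0922 (SD, n = 3) of the TPM of the 4 essential chains in WT mice, against 0.149% ± 0.0321 (SD, n = 3) in LSD1-mKO. These shares depend on the length used. Over all mice Myl4 had a mean of 38.1 TPM by the longest coding transcript, and 10.9 TPM by the union of all exons.

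Summed markers of connective tissue were highest in WT3, as was Myl4. The fibroblast list (Pdgfra, Col1a1 and Dcn) summed to 640, 1407 and 1675 CPM in WT1 to WT3, against 1202, 828 and 788 CPM in LSD1-mKO1 to LSD1-mKO3, with 0 of its 3 genes past the threshold and Dcn the most abundant. The tendon list (Tnmd, Scx and Mkx) summed to 39.9, 70.0 and 84.0 CPM in WT1 to WT3, against 72.4, 35.0 and 37.6 CPM in LSD1-mKO1 to LSD1-mKO3, with 0 of 3 past the threshold and Tnmd the most abundant. Scx, in the tendon list, did not follow its sum: it was highest in LSD1-mKO1 (28.1 CPM) and at 16.3 CPM in WT3. No marker of either list was at 0. The part of connective tissue in the Myl4 values was not tested. The embryonic myosin Myh3 was also highest in WT3, at 243 CPM against 75.2 to 142 CPM in the other 5 mice. Of the 7 tested genes in the list of embryonic and regeneration genes (8 listed), 2 were fitted higher and 5 lower, and 0 passed. Over all 12828 genes tested, 5801 were fitted higher and 7027 lower, and 2 passed.

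**Figure D2:**
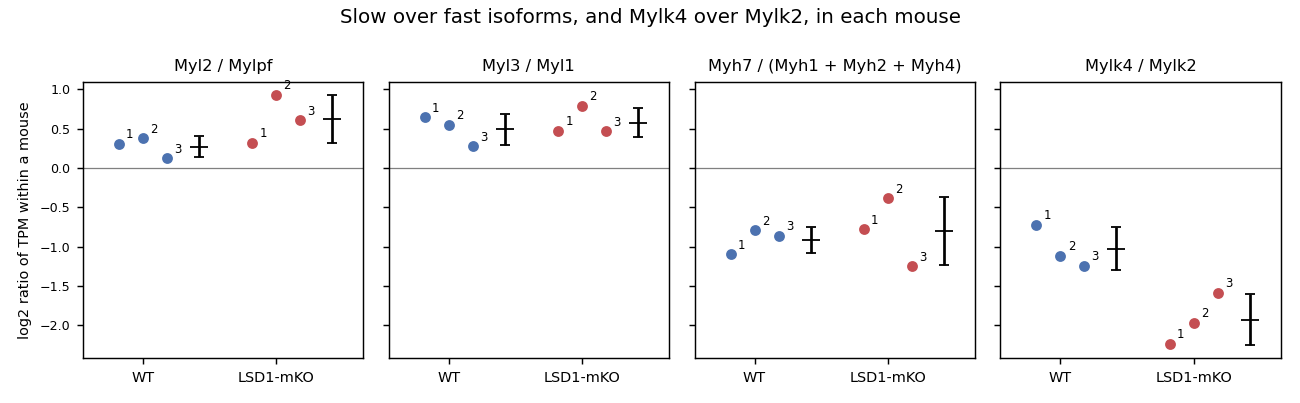
Log2 ratio of TPM within each mouse for the regulatory chains (Myl2 over Mylpf), the essential chains (Myl3 over Myl1), the myosin heavy chains (Myh7 over the sum of Myh1, Myh2 and Myh4) and the kinases (Mylk4 over Mylk2). Points are mice with their replicate numbers and bars are the mean and SD of 3 mice; the genotypes overlap in the ratios of light and heavy chains, and the kinase ratio is from -1.24 to -0.72 in WT and from -2.24 to -1.59 in LSD1-mKO.

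The order of the levels was taken per length, with the longest coding transcript as the length of a gene. Over the 6 mice Myl3 had 11240 ± 484 TPM and Myl2 10921 ± 1311 TPM (SD, n = 6), a gap within the spread between mice. Mylpf followed at 8164 ± 1977 TPM and Myl1 at 7788 ± 810 TPM (SD, n = 6), again a gap within the spread. The order of these 4 depends on the length used: Mylpf had the highest mean with the union of all exons (8297 TPM) and Myl2 with the mean transcript length (14269 TPM). Below these 4 lay Myl6b at 474 ± 181, Mylk2 at 225 ± 41.6, Mylk4 at 88.8 ± 43.8 and Myl4 at 38.1 ± 15.9 TPM (SD, n = 6). In LSD1-mKO1, however, Myl4 (38.2 TPM) lay above Mylk4 (33.6 TPM). By TPM over the 6 mice Myl3 held rank 8 and Myl1 rank 12 among all genes, with Myl2 and Mylpf at ranks 9 and 10. The slow chain exceeded the fast chain of its class in 6 of 6 mice for both classes, although Myl2 exceeded Mylpf in 1 of 6 mice when the union of all exons was used as the length.

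The 6 light chains together summed to 36674, 36040.4 and 43278 TPM in WT1 to WT3, against 43713, 35774 and 36273 TPM in LSD1-mKO1 to LSD1-mKO3. The highest sums were in WT3 and LSD1-mKO1, the mice with the most Mylpf. Regulatory chains made up between 45.7% and 52.9% of these sums, and between 49.96% and 57.3% with the union of all exons as the length. The other 6 light chains on the list (Myl6, Myl7, Myl9, Myl10, Myl12a and Myl12b) include those of smooth muscle and non-muscle myosin. Of these, 5 were tested, with 1 fitted higher and 4 lower, beside 5801 and 7027 of all 12828 genes tested. The median log2 fold change of the 5 was -0.03, and 0 passed the threshold, against 2 of all genes tested. Myl12a was the most abundant at 1308 TPM.

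Light chains were next set beside the heavy chain and other genes of the fiber types. Myh7, the slow heavy chain, over the sum of Myh1, Myh2 and Myh4, the fast ones, was -1.10, -0.79 and -0.86 on the log2 TPM scale in WT1 to WT3, against -0.78, -0.38 and -1.25 in LSD1-mKO1 to LSD1-mKO3. The LSD1-mKO mice held both the highest ratio (LSD1-mKO2) and the lowest (LSD1-mKO3), and the means differed by 0.11 (exact permutation test, 2-sided, p = 0.7, and 0.7 after adjustment over the 4 ratios). Without LSD1-mKO2 that difference was -0.10, and without LSD1-mKO3 it was 0.34. With Myh2 alone as the fast chain, the difference over all mice was 0.19. Slow heavy chain made up 34.7% ± 2.51 (SD, n = 3) in WT mice, against 36.6% ± 6.91 (SD, n = 3) in LSD1-mKO. In 6 of 6 mice this slow share was below that of the regulatory and of the essential chains, but with the mean transcript length in place of the longest it was below them in 5 and 2 of 6 mice. With that mean length the heavy chain log2 ratio ran from 0.073 to 0.96, so whether slow or fast heavy chain is the larger depends on the length used.

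Across the 6 mice, Myl2 over Mylpf and Myl3 over Myl1 had a Pearson r of 0.76 (exact permutation p = 0.0833, adjusted 0.417 over the 5 relations computed) and a Spearman coefficient of 0.49 (exact permutation p = 0.356, adjusted 0.524). Without LSD1-mKO2 and LSD1-mKO3, which lie farthest from the median of the regulatory ratio, r was 0.84 over 4 mice. The heavy chain ratio had an r of 0.44 with the regulatory ratio (exact permutation p = 0.362, adjusted 0.604; Spearman 0.31, p = 0.564, adjusted 0.564), and r was 0.08 without LSD1-mKO2 and LSD1-mKO3. With the essential ratio its r was 0.46 (exact permutation p = 0.362, adjusted 0.604; Spearman 0.49, p = 0.356, adjusted 0.524), and r was -0.47 without those mice. The regulatory ratio had an r of 0.02 with the log2 CPM of Mylk2 (exact permutation p = 0.971, adjusted 0.971; Spearman -0.43, p = 0.419, adjusted 0.524), and -0.47 without those mice. With the log2 CPM of Mylk4 its r was -0.32 (exact permutation p = 0.55, adjusted 0.688; Spearman -0.60, p = 0.242, adjusted 0.524), and -0.22 without them. Within a genotype, over 3 mice each, the regulatory ratio had an r of -0.51 in WT and 1.00 in LSD1-mKO with Mylk2, and of 0.0024 and 0.83 with Mylk4. With the essential ratio its r was 0.87 in WT and 0.87 in LSD1-mKO. The heavy chain ratio had an r of -0.03 in WT and 0.50 in LSD1-mKO with the regulatory ratio. With the essential ratio the heavy chain values were -0.51 and 0.86. None of the 5 relations passed an adjusted p of 0.05.

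Among all 12828 genes tested, 5801 were fitted higher in LSD1-mKO and 7027 lower. Of the 9 sarcomeric myosin heavy chains, 2 were fitted higher and 7 lower, with a median log2 fold change of -0.25. The 7 slow fiber genes (Myh7, Tnnt1, Tnni1, Tnnc1, Tpm3, Atp2a2 and Casq2) had 5 fitted higher and 2 lower, with a median of 0.16. The 11 fast fiber genes had 4 fitted higher and 7 lower, with a median of -0.11. In these 3 lists 0 genes passed the adjusted threshold and 0 had genotypes that did not overlap. Actn3, the fast fiber actinin, had an unadjusted p under 0.05: it measured 91.9, 63.6 and 198 CPM in WT1 to WT3, against 497, 165 and 341 CPM in LSD1-mKO1 to LSD1-mKO3. Its log2 fold change was 1.503 (standard error 0.48, edgeR adjusted p = 0.636), with WT3 above LSD1-mKO2. Of the 55 tested genes in all lists other than the 8, 1 (Actn3) had an unadjusted p under 0.05 in edgeR, and 0 passed the adjusted threshold with edgeR, DESeq2 or voom. At that unadjusted p, 3.52% of all genes tested were higher in LSD1-mKO and 2.88% were lower. Among the same 55 the genotypes did not overlap for 1, Dapk3, against 6.1% of all genes in its direction (lower) and 6.63% in the other.

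Markers of the cells that a piece of Sol can hold were summed per library for 12 lists, and the genotypes overlapped in the sums of all 12 (skeletal, smooth and cardiac muscle, type IIB and IIX fibers, satellite, endothelial, tendon and Schwann cells, fibroblasts, leukocytes, adipocytes and red blood cells). Of their 41 tested genes 0 passed the adjusted threshold, and 2 had an unadjusted p under 0.05 (Actn3 and Hba-a1, both fitted higher in LSD1-mKO). Hba-a1 measured 13.5, 5.76 and 0 CPM in WT1 to WT3, against 2.59, 78.0 and 202 CPM in LSD1-mKO1 to LSD1-mKO3, so the genotypes overlapped. The other red blood cell markers did not follow it, with log2 fold changes of -0.58 for Hba-a2, -0.01 for Hbb-bs and -0.03 for Hbb-bt. At that unadjusted p, 3.52% of all genes tested were higher and 2.88% were lower. WT1, the mouse with the most Mylk4, had the highest sums for skeletal and smooth muscle and the lowest for endothelial cells, fibroblasts, leukocytes, adipocytes and red blood cells. Without WT1 the log2 fold change of Mylk4 was -0.89. For the kinase Mylk4, whose genotypes did not overlap, the markers of type IIB and IIX fibers (Myh4, Myh1, Pvalb and Actn3) summed to 5414, 2495 and 4994 CPM in WT1 to WT3, against 4629, 3818 and 6551 CPM in LSD1-mKO1 to LSD1-mKO3. Myh1 was the most abundant of these markers, and 0 of the 4 were at 0.

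The genes closest to Myl2 and Mylpf in pattern were found by the Pearson correlation of log2(CPM + 1) over the 6 mice, among 3206 other genes with a mean of at least 50 CPM. For Myl2 these were Cacnb1 (r = 0.98), a subunit of the calcium channel of the muscle membrane, Rps24 (0.98), Gm1821 (0.98), Atxn10 (0.93) and Srrm2 (0.92). For Mylpf they were Csrp3 (r = 0.98), the muscle LIM protein of the Z-disc, Npr3 (0.96), Stat3 (0.96), Morf4l2 (0.96) and Hnrnpk (0.96). An r over 0.9 was reached by 10 genes for Myl2 and by 17 for Mylpf. The 5 genes named for Myl2 and the 5 for Mylpf share none, and with 6 points chosen from so many genes these values are descriptive.

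The 8 genes lie on 8 different chromosomes. Myl6b is separated by 11 bases from Myl6, the non-muscle and smooth muscle essential chain on the same strand. Exons of Myl2, Myl3 and Myl4 share 60, 95 and 3 bases with genes on the opposite strand (Ccdc63, Pth1r and Gm22000), which is 3.1%, 4.6% and 0.1% of their exon bases. Whether the counting used strand is not given in the sources used here, so reads from those bases cannot be told apart. The other 5 genes share no exon base with another annotated gene.

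Promoter windows from 250 bases before to 50 after the start were taken from RefSeq for GRCm38.p6, where 7 of the 8 genes matched and Mylk2 did not. They were searched on both strands for the E-box CANNTG, bound by muscle basic helix-loop-helix factors, which 72.3% of all 32851 promoter windows hold, with a median of 1 match. They were also searched for AAGGTCA, the core site of the estrogen-related and other nuclear receptors (4.72% of windows), for TATAAA (13.6%), and for the MEF2 motif (3.19%) and the CArG box (1.63%). The window of Mylk4 (chr13:32783915-32784214, minus strand) held 4 E-boxes, 1 match to AAGGTCA and 1 to the MEF2 motif. The window of Mylpf (chr7:127211358-127211657, plus strand) held 1 E-box and that of Myl6b (chr10:128498636-128498935, minus strand) held 2, with no match to the other 4 motifs in either. These 3 windows are shown because Mylk4 had the largest difference between the genotypes among the 8 genes, and Mylpf and Myl6b were high in the same mice. They read 5′ to 3′ with E-boxes in capitals, as is TGACCTT, the reverse complement of AAGGTCA, 145 bases before the start of Mylk4. The RefSeq start lies away from the GENCODE start of several genes: 2718 bases inside Mylpf, 21817 inside Myl3 and 348 inside Myl1, and 8227 and 7762 bases before Myl2, so these windows may not be those of the transcripts counted.
Mylk4: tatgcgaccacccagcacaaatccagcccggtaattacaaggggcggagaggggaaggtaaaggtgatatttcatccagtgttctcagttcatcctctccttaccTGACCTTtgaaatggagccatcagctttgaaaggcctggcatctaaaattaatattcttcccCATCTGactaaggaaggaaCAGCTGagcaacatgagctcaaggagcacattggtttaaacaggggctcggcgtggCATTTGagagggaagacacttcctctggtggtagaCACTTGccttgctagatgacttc
Mylpf: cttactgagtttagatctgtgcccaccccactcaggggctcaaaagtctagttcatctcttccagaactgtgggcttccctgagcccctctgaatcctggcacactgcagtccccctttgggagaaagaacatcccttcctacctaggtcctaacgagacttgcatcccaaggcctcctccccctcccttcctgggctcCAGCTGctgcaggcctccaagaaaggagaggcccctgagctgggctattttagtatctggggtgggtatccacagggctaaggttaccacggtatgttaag
Myl6b: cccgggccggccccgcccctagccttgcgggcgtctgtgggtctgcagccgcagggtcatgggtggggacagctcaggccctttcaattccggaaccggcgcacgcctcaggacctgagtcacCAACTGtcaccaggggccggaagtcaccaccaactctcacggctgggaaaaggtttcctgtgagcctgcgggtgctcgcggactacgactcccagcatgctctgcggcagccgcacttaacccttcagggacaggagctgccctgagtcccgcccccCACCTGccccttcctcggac

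Among the remaining windows, that of Myl1 held 1 E-box and 1 match to TATAAA, and that of Myl3 held 1 E-box and 1 CArG box. That of Myl4 held 0 matches to the 5 motifs. Myl2 has 2 entries with 2 and 3 E-boxes, and the later of them held 1 match to TATAAA. Among the 7 genes with a window, AAGGTCA and the MEF2 motif were matched in that of Mylk4 only. A match describes letters in the window, and binding was not measured.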

How the data were processed

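Reads of 75 bases, single-end, were aligned by the authors with STAR to mm10 (GRCm38). The deposited values are estimated counts for each gene, not normalized, in a column for each mouse. The counting tool and its annotation are not given in the sources used here. The authors also deposited a table of their own fold changes and p-values, which was not used. Estimated counts were rounded and compared with edgeR 4.0.16 under R 4.3.3 by its quasi-likelihood test after TMM and filterByExpr, and p-values were adjusted by Benjamini-Hochberg across all 12828 genes that passed. DESeq2 1.42.0 and limma 3.58.1 (voom) were alternatives, beside other normalizations and filters, the replicate number as a block and each mouse left out in turn. The fit was tested on simulated data. Single values were compared with 2-sided exact permutation tests over the 20 orders of 3 and 3 mice, and relations over all 720 orders of 6. TPM used the length of the longest coding transcript from GENCODE vM21, which gave a length to 99.7% of the counts. The 8 genes and the lists were chosen with earlier results of these data known. Genes named are the 8, their lists and markers, Kdm1a, genes that share exon bases with the 8, and the 5 genes closest in pattern to Myl2 and to Mylpf.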

Additional observations from a re-analysis of the deposited data

How the results depend on the processing

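For the 8 genes, 14 alternatives gave 112 log2 fold changes, of which 104 had the same direction and stayed above the adjusted threshold. The exceptions were the DESeq2 call of Mylk4 (-1.18) and 7 changes of sign, all with 1 mouse left out. Leaving out each mouse in turn gave -0.14 to 0.062 for Myl1, -0.036 to 0.16 for Myl3, -0.45 to 0.0050 for Mylpf, -0.53 to 0.24 for Myl6b, 0.06 to 0.25 for Myl2, -0.46 to -0.14 for Mylk2, -0.89 to -0.36 for Myl4 and -1.36 to -0.89 for Mylk4. In the same fits the ratio differences ran from 0.19 to 0.50 for the regulatory chains, -0.022 to 0.17 for the essential chains, -0.10 to 0.34 for the heavy chains and -1.07 to -0.75 for the kinases. Genes called higher numbered 33 with DESeq2, 2 with voom, 8 without a filter and 1 to 2 with 1 mouse left out, and genes called lower numbered 9, 1, 3 and 0 to 1. Leaving out WT1 raised the number with unadjusted p below 0.05 to 841 higher and 1044 lower of 13079 tested, from 452 and 369 of 12828. The cause of these changes was not tested, other than that fewer mice enter a fit with 1 left out.

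With the replicate block, 1 gene was called higher and 0 lower, and Kdm1a had an adjusted p of 0.299 (edgeR, log2 fold change -1.23, against a range of 7.81e-11 to 0.299 over its alternatives). The labels do not say that mice with the same number were paired. Same-numbered mice deviated from their group means with correlations of -0.42, -0.09 and -0.17 over 10211 genes, and differently numbered mice with -0.25 to 0.36. With means of 3 mice, these values cannot show whether mice were paired. Kdm1a also missed the threshold in 4 of the fits that left out 1 mouse, with log2 fold changes from -1.26 to -1.17.

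With the union of all exons as the length, mean levels were 5724 TPM for Myl1, 7016 for Myl2, 7259 for Myl3, 8297 for Mylpf (the highest of the 8), 10.9 for Myl4 and 316 for Mylk2. With the mean transcript length they were 14269 TPM for Myl2 and 166 for Mylk2. Transcript length does not enter the differences between genotypes of a single gene. The depth gave between 104 and 301 counts for Myl4 and at least 1153 for each of the other 7 genes. Counting error was not compared with the spread between mice.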
